A study of Mus musculus with 20 samples.

Results

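The 10 genes described here encode the core of the clathrin coat and the adaptors that carry receptors into it: the clathrin chains Cltc, Clta and Cltb, the AP-2 subunits Ap2a1, Ap2a2, Ap2b1, Ap2m1 and Ap2s1, the AP-1 subunit Ap1m1 and the dynamin Dnm2. They were taken by symbol from the deposited probe table, each through its named probe set of highest mean signal, and make up 10 of the 30063 genes with such a probe set. Each of the 10 had 1 such probe set, and all 10 were among the 17993 genes tested.

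Clathrin-mediated endocytosis is the main route by which nutrient and growth factor receptors leave the plasma membrane. The AP-2 adaptor binds membrane phosphoinositides and the sorting motifs of cargo, recruits clathrin into a coated pit, and dynamin then cuts the neck of the pit to free the vesicle. AP-1 does the related work at the trans-Golgi network and endosomes. In the pancreas this route takes up insulin and growth factor receptors, and inceptor, the product of Elapor1 (Iir in the labels), has been described as a receptor that promotes clathrin-mediated uptake of the insulin receptor. The comparison of knockout with wild type therefore asks whether the pancreas without inceptor holds more or less RNA for the uptake machinery.

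RNA came from the whole pancreas of C57BL/6J mice, hybridised to 20 Affymetrix arrays, and values are log2 signals. The groups were Iir -/- at embryonic day 18.5 (E18.5, 5 arrays), Iir +/+ at E18.5 (4 arrays), Iir -/- on the day of birth (P0, 6 arrays) and Iir +/+ at P0 (5 arrays). Mothers were starved for 2 h before the E18.5 collection and pups for 5 h before the P0 collection, so that age and starvation cannot be told apart. Sex was recorded as not determined, and the labels name neither litters nor separate animals, so p-values measure the spread between these arrays, whose number limits the precision.

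Array medians lay between 4.81 and 4.94, and every pair of arrays correlated at 0.979 or above (Pearson, over the probe sets). Elapor1 itself averaged 6.31 ± 0.30 in knockout and 11.86 ± 0.22 in wild type at E18.5, and 6.05 ± 0.30 in knockout and 11.54 ± 0.35 in wild type at P0 (SD, n = 5, 4, 6 and 5 arrays). Acinar markers were high on every array, with a mean over 8 genes of 14.01 to 14.73 in P0 knockout, 15.19 to 15.53 in E18.5 knockout, 14.18 to 14.66 in P0 wild type and 14.96 to 15.49 in E18.5 wild type; 3 of the 8 sat at the ceiling of the scale. On 5 arrays, the mean over the listed intestinal or skeletal muscle markers exceeded 7. These were E18.5 knockout 1 (muscle markers 7.52), 2 (intestinal 9.15) and 4 (intestinal 7.26), E18.5 wild type 4 (intestinal 7.69) and P0 knockout 4 (muscle 7.98). Liver markers were not part of this cut, so fits without these arrays keep arrays with high liver signal. The liver means over 9 genes were 10.36 to 13.85 in E18.5 knockout and 10.64 to 13.13 in E18.5 wild type. At P0 they were 10.26 to 14.11 in knockout and 8.13 to 12.56 in wild type.

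No clathrin or adaptor gene passed the test between knockout and wild type at either age. At E18.5, 0 of the 10 genes passed an adjusted p of 0.05 in limma, against 0.0111% of all genes tested, and 0 had an unadjusted p under 0.05. At P0, 0 of 10 passed, against 0.0111% of all genes, and Cltc and Ap2m1 had an unadjusted p under 0.05. At each age that share was 2 genes, 1 of them Elapor1 itself. The ranges of knockout and wild type overlapped for all 10 genes at both ages; over all genes tested they did not overlap for 2.45% at E18.5 and for 0.511% at P0. The median difference of the 10 genes, knockout minus wild type, was -0.01 at E18.5 and 0.01 at P0, beside 0.02 and 0.01 over all genes. At E18.5 the 95% intervals of all 10 lay between -0.38 and 0.39, so that a change above 1.31-fold lay outside every interval. At P0 they reached from -0.60 to 0.36, and the widest, that of Cltc, ended at 1.51-fold. In bulk RNA, fewer cells of a type and less RNA per cell cannot be told apart.

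**Figure D1:**
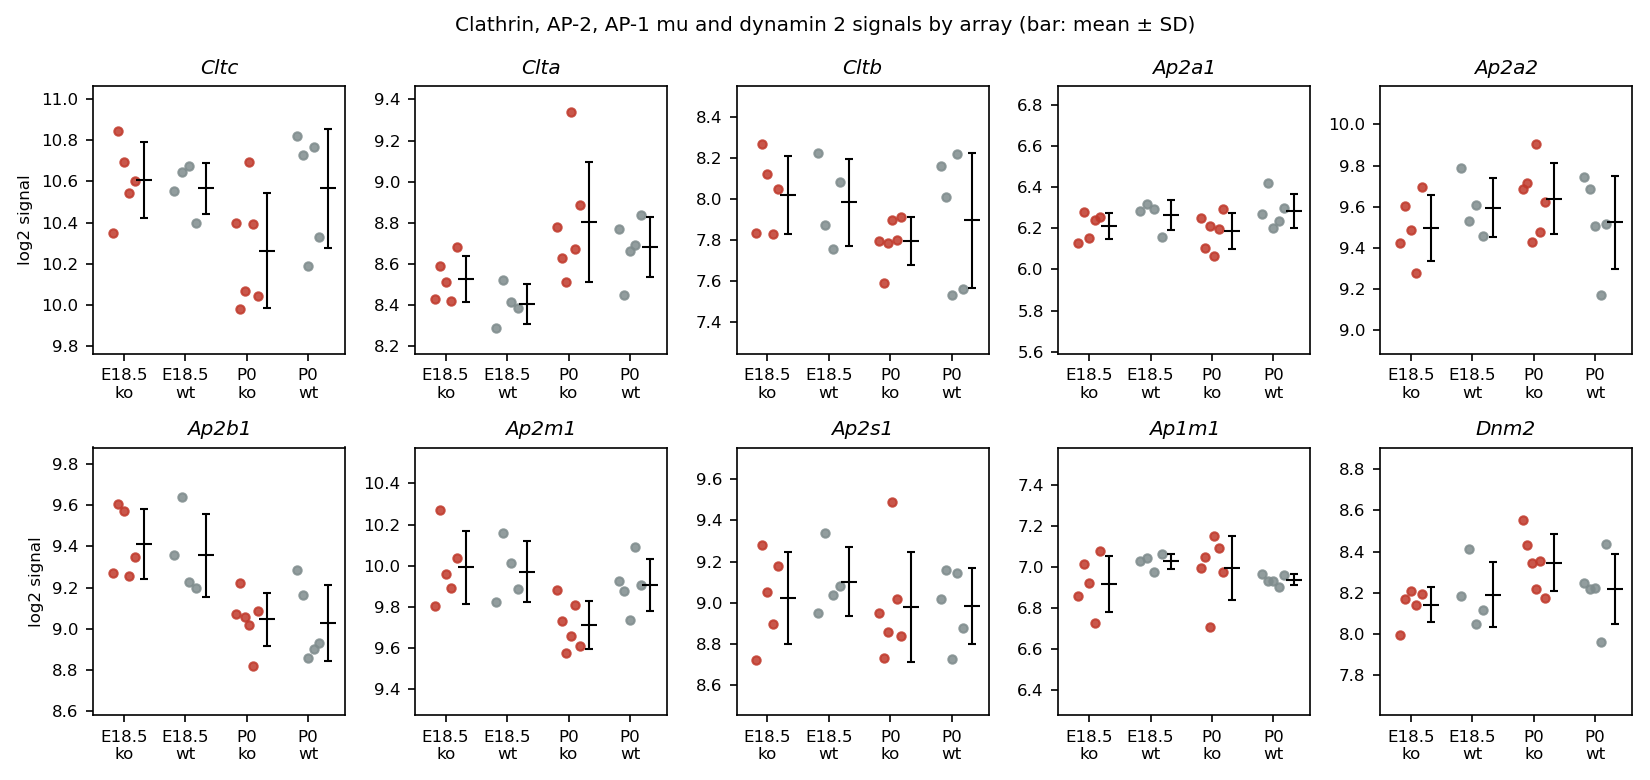
Log2 signal of each clathrin and adaptor gene on every array (points) with the group mean and SD (bars), grouped by age and genotype. Knockout and wild type overlap for all 10 genes at both ages, while the P0 knockout arrays of Ap2b1 lie below every E18.5 knockout array.

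The clathrin heavy chain, Cltc, forms the legs of the triskelion that builds the cage. On the P0 knockout arrays its log2 signal had a lowest value of 9.98, a median of 10.23 and a highest value of 10.70, against 10.82, 10.73, 10.19, 10.77 and 10.33 on the P0 wild-type arrays. Knockout arrays 2, 3 and 6 were lower than every wild-type array, whereas knockout array 4, the one with raised muscle markers, lay just below the 3 higher wild-type arrays. The difference was -0.30 ± 0.14 (SE; 95% interval -0.60 to -0.01), with 5 of 6 knockout arrays below the wild-type mean; its unadjusted limma p was 0.0432 and its adjusted p 0.569, so it did not pass. Of all 17993 genes, 1576 had an unadjusted p under 0.05 in this comparison. Liver markers, whose RNA also varied between arrays, had means over 9 genes of 10.26 to 14.11 in P0 knockout and 8.13 to 12.56 in P0 wild type. Of the knockout arrays low in Cltc, 2 and 6 had the highest liver means at P0, 13.605 and 14.11, and array 3 had 11.81. Wild-type array 4, with the highest liver mean of its group, had a Cltc signal of 10.77. The part of liver RNA in the Cltc values was not tested.

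At E18.5, Cltc had signals of 10.35, 10.85, 10.69, 10.55 and 10.60 in knockout, against 10.55, 10.65, 10.67 and 10.40 in wild type. The knockout values enclosed the wild-type ones, and the difference was 0.04 ± 0.15. The knockout effect at P0 minus that at E18.5 was -0.34 ± 0.21 for Cltc (limma adjusted p = 0.769), so the ages were not shown to differ.

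The light chains sit on the heavy chain and regulate assembly of the coat, and neither passed between genotypes. Clta had a lowest value of 8.51, a median of 8.72 and a highest value of 9.34 in P0 knockout, against 8.77, 8.45, 8.66, 8.69 and 8.84 in P0 wild type. The groups overlapped widely, with the highest value again on knockout array 4. At E18.5 it had 8.43, 8.59, 8.52, 8.42 and 8.68 in knockout, against 8.29, 8.53, 8.42 and 8.39 in wild type. All 5 knockout arrays lay above the wild-type mean, and the ranges overlapped. The difference was 0.12 ± 0.13 at E18.5 and 0.12 ± 0.11 at P0 (SE; limma adjusted p = 0.992 and 0.783). Cltb ranged from 7.59 to 7.91 in P0 knockout and from 7.53 to 8.22 in P0 wild type, a difference of -0.10 ± 0.13, and it differed by 0.04 ± 0.14 at E18.5.

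For Ap2b1 and Ap2m1, the subunits that passed a test of age below, and for Cltb, which shares a rare motif with Ap2b1, the 250 bases upstream of the annotated start are shown. The sequences are RefSeq's for assembly GRCm38.p6, at chr11:83302447-83302696 on the plus strand for Ap2b1, chr16:20535230-20535479 on the plus strand for Ap2m1 and chr13:54611374-54611623 on the minus strand for Cltb, and run 5′ to 3′ with matches in capitals.
Ap2b1: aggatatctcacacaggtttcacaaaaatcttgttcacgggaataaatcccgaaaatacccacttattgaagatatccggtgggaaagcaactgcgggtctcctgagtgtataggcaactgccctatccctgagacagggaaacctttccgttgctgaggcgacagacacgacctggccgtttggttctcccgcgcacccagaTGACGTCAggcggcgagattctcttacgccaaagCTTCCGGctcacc
Ap2m1: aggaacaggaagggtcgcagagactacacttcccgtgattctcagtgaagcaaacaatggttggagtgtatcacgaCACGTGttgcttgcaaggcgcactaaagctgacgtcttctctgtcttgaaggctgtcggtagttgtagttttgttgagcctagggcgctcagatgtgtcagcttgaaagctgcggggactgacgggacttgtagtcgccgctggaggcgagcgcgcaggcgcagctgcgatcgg
Cltb: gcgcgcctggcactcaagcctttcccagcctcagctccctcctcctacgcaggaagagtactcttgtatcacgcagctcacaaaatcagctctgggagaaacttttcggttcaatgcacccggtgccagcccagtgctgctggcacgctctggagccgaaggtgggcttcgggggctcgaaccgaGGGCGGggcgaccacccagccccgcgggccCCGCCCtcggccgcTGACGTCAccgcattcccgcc
Capitals mark the cyclic AMP response element TGACGTCA in Ap2b1 and Cltb, the ETS motif CCGGAAG on the other strand in Ap2b1, the E box CACGTG in Ap2m1, and the GC box GGGCGG on both strands in Cltb.

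A search of both strands of the same 250-base window in 32851 RefSeq promoters found TGACGTCA in 1.55%, CCGGAAG in 6.91%, CACGTG in 6.02% and GGGCGG in 32.7%. Of the 9 genes matched in the table, Clta with 2 windows, 2 held TGACGTCA (Cltb and Ap2b1), 2 held CCGGAAG (Ap2b1 and Ap2s1), 1 held CACGTG and 5 held GGGCGG. The shorter CCAAT occurred in 4 of 9 (Clta, Ap2a1, Ap2a2 and Dnm2), against 33.8% of all promoters. A gene counted if any of its windows held the motif, whereas the percentages are per window. Clta held GGGCGG in 1 of its 2 windows and CCAAT in the other. The FOXO motif GTAAACA, the NRF1 motif and the YY1 motif AAGATGGC were in 0 of 9, against 3.17%, 0.782% and 1.56%. The matches describe these letters only. The genes' windows held 3 to 26 CpG pairs, beside a median of 6 over all windows. The count of 3 was that of 1 Clta window, and every other window held 9 or more. The sequence of Ap1m1 was not analysed here.

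Ap2m1, the medium subunit of AP-2 that reads tyrosine-based sorting motifs in receptor tails, had the smallest unadjusted p of the 10 genes between genotypes at P0. Its signal had a lowest value of 9.58, a median of 9.69 and a highest value of 9.88 in P0 knockout, against 9.93, 9.88, 9.74, 10.09 and 9.91 in P0 wild type. All 6 knockout arrays lay below the wild-type mean, but the groups overlapped. The difference was -0.20 ± 0.09 (95% interval -0.38 to -0.01), with an unadjusted limma p of 0.0376 and an adjusted p of 0.568. At E18.5, knockout arrays read 9.80, 10.27, 9.96, 9.89 and 10.04, against 9.82, 10.16, 10.01 and 9.89 in wild type, a difference of 0.02 ± 0.10. Between the ages the effect differed by -0.22 ± 0.13 (adjusted p = 0.768).

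None of the other AP-2 subunits passed between genotypes. Ap2b1, the beta subunit that binds clathrin, differed by 0.02 ± 0.10 at P0 and by 0.05 ± 0.11 at E18.5. Of the alpha subunits, which bind the membrane and accessory proteins, Ap2a1 differed by -0.10 ± 0.05 at P0, with 5 of 6 knockout arrays below the wild-type mean (adjusted p = 0.62), and Ap2a2 by 0.11 ± 0.11. At E18.5 these differences were -0.05 ± 0.06 and -0.10 ± 0.12. Ap2s1, the small sigma subunit that reads dileucine motifs together with an alpha subunit, spanned 8.73 to 9.49 in P0 knockout and 8.73 to 9.16 in P0 wild type, and the difference was -0.00 ± 0.13.

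Ap1m1, the medium subunit of AP-1, had values from 6.71 to 7.15 in P0 knockout and from 6.90 to 6.97 in P0 wild type, a difference of 0.06 ± 0.07. The wild-type arrays were tightly grouped (SD 0.03) and the knockout arrays less so (SD 0.15). Dnm2, the ubiquitous dynamin, ranged from 8.18 to 8.55 in P0 knockout and from 7.96 to 8.44 in P0 wild type; 5 of 6 knockout arrays lay above the wild-type mean, and the difference was 0.13 ± 0.09 (adjusted p = 0.68). At E18.5 Ap1m1 differed by -0.11 ± 0.08 and Dnm2 by -0.05 ± 0.10.

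Averaged over both ages, the knockout effect ran from -0.13 for Cltc to 0.12 for Clta, with adjusted p-values of 0.784 to 0.999; 0 of 10 genes passed, against 0.0167% of all genes, and 0 had an unadjusted p under 0.05. The interval reaching farthest, for Cltc, ended at 1.27-fold. The effect was not shown to differ between the ages for any of the 10 (0 passed, against 0.0% of all genes, and 0 had an unadjusted p under 0.05).

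**Figure D2:**
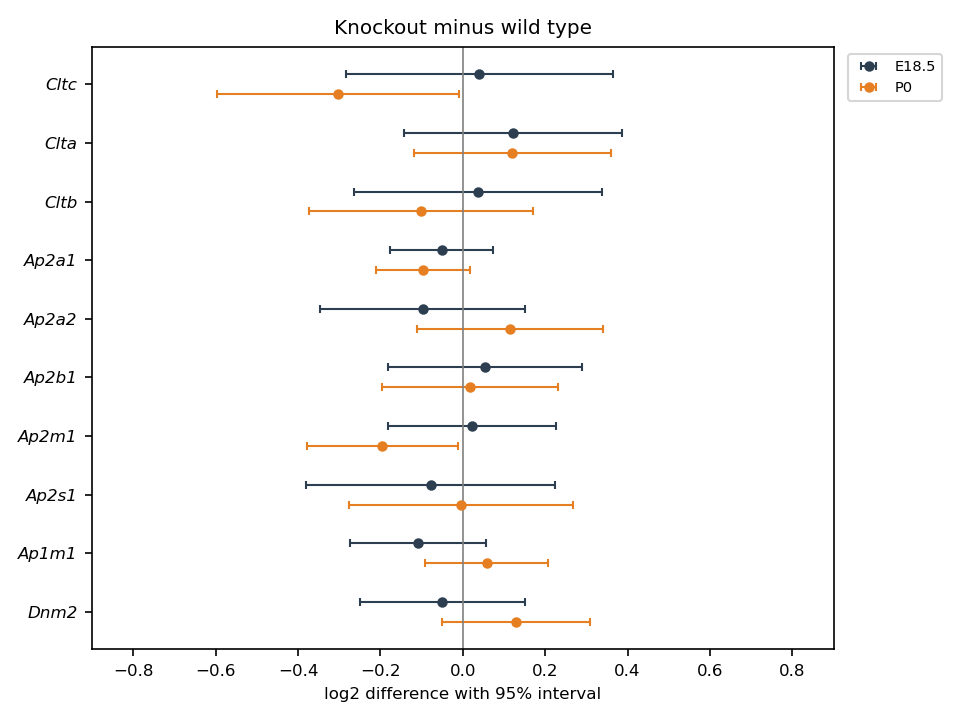
Log2 difference of knockout minus wild type for each gene at E18.5 and at P0, with 95% intervals from limma. All 10 intervals hold 0 at E18.5 and 8 of 10 at P0; those of Cltc and Ap2m1 end just below 0 at P0.

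In the knockout, Ap2b1 and Ap2m1 were lower at P0 than at E18.5: 2 of the 10 genes passed, both lower, against 23.0% of all genes in either direction, 11.7% lower and 11.3% higher. Ap2b1 had a lowest value of 8.82, a median of 9.06 and a highest value of 9.22 in P0 knockout, against 9.27, 9.61, 9.57, 9.26 and 9.35 in E18.5 knockout. Every P0 array lay below every E18.5 array, as for 12.4% of all genes tested. The difference was -0.37 ± 0.10 (95% interval -0.58 to -0.15), a 1.29-fold fall, with a limma adjusted p of 0.0142. In wild type, Ap2b1 had 9.28, 9.16, 8.86, 8.90 and 8.93 at P0, against 9.36, 9.64, 9.23 and 9.20 at E18.5. The ranges overlapped through P0 array 1, and the difference of -0.33 ± 0.11 did not pass (adjusted p = 0.0746), although all 5 P0 arrays lay below the E18.5 mean. Leaving out 1 array at a time gave -0.39 to -0.24, with adjusted p-values of 0.0366 without P0 array 1, the 1 call among 20, to 0.254 without E18.5 array 2. The fall was not shown to differ between genotypes (-0.04 ± 0.15, adjusted p = 0.985).

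For Ap2m1 the P0 knockout values of 9.58 to 9.88 set out above stood against 9.80 to 10.27 in E18.5 knockout. All 6 P0 arrays lay below the E18.5 mean, and the ranges overlapped. The difference was -0.28 ± 0.09 (limma adjusted p = 0.0263), a 1.22-fold fall. The call was lost without E18.5 knockout array 2 (-0.21, adjusted p = 0.0859), which had the highest Ap2m1 value and raised intestinal markers, and without E18.5 knockout array 5 or P0 knockout array 3 or 6 (adjusted p = 0.0511, 0.0574 and 0.0543). It was also lost with centring on array medians (adjusted p = 0.0762) and with the replicate block (adjusted p = 0.0637). Without all 5 marker-rich arrays, which leaves 2 E18.5 knockout arrays, the differences of Ap2b1 and Ap2m1 were -0.41 and -0.28, with adjusted p-values of 0.14 and 0.2. In wild type, Ap2m1 differed by -0.06 ± 0.10.

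In the knockout the remaining genes did not pass. Cltc differed by -0.34 ± 0.14 (adjusted p = 0.0844), Clta by 0.28 ± 0.11 (0.0912), Dnm2 by 0.21 ± 0.09 (0.0945) and Cltb by -0.22 ± 0.13 (0.235). With 1 array left out, Cltc differed by -0.43 to -0.28, and it passed in 1 of 20 such fits, without P0 knockout array 4 (adjusted p = 0.027), while the adjusted p was 0.2 without E18.5 knockout array 2. Of these, Dnm2 was above the E18.5 mean and Cltb below it on 6 of 6 P0 arrays. In wild type 0 of 10 genes passed, against 8.86% of all genes (4.76% higher and 4.1% lower). Ap2b1 and Clta had an unadjusted limma p under 0.05 there, as had 4384 of all 17993 genes. Clta differed by 0.28 ± 0.13 (adjusted p = 0.186), with 5 of 5 P0 arrays above the E18.5 mean, and Cltc by -0.00 ± 0.15. Ap1m1 was the 1 gene whose wild-type ranges did not overlap, as for 11.6% of all genes. It stood at 6.90 to 6.97 at P0 and 6.98 to 7.06 at E18.5, a difference of -0.09 ± 0.08. That SE rests on the spread in all 4 groups. The SD at E18.5 and P0 was 0.14 and 0.15 in knockout, against 0.04 and 0.03 in wild type.

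Averaged over both genotypes, a comparison added after the values were seen, 2 of 10 genes passed, 1 lower and 1 higher, against 30.5% of all genes in either direction, 14.7% lower and 15.8% higher. Ap2b1 differed by -0.35 ± 0.08 (adjusted p = 0.00204) and Clta by 0.28 ± 0.09 (adjusted p = 0.0196). P0 knockout array 4, with muscle markers at 7.98, held the highest Clta signal of all; without it Clta differed by 0.22 and passed (adjusted p = 0.0101). Without the 5 marker-rich arrays the difference was 0.18 and did not pass (adjusted p = 0.127), nor did it pass with repeated quantile normalisation (0.22, adjusted p = 0.053) or the replicate block (0.26, adjusted p = 0.0574). Ap2m1 differed by -0.17 ± 0.07 (adjusted p = 0.0528). Cell type markers also differed with age, beside 11.7% lower and 11.3% higher of all genes in the knockout, and 4.1% lower and 4.76% higher in wild type. Among 8 acinar markers tested, 3 of them at the ceiling of the scale, 3 passed as lower at P0 in each genotype. Their median differences were -0.23 in the knockout and -0.00 in wild type. Among 6 endocrine markers tested, 1 passed as higher at P0 in the knockout, with a median of 0.26, and 2 in wild type, with a median of 0.09. Of 8 intestinal markers tested, 3 passed as lower at P0 in the knockout, with a median difference of -1.48, and 1 in wild type, with a median of -0.39. Of 7 mesenchymal markers tested, 3 passed as higher at P0 in the knockout, with a median of 0.31, and 1 in wild type, with a median of 0.13. Liver markers had medians of 0.41 in the knockout and -1.69 in wild type, and 0 of 9 passed in either genotype. Neuron and Schwann cell markers had medians of 0.48 in the knockout and -0.91 in wild type. Among the 7 of them tested, 1 passed as lower at P0 in each genotype. The part of these tissues and cells in the age differences of the 10 genes and of the lists below was not tested.

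**Figure D3:**
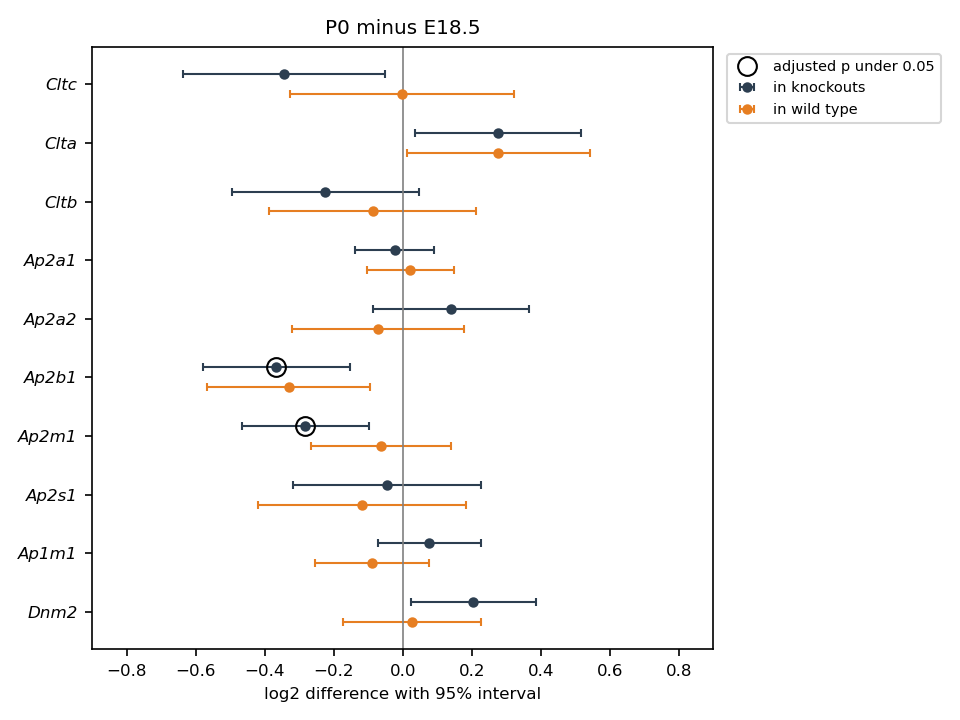
Log2 difference of P0 minus E18.5 for each gene in knockout and in wild type, with 95% intervals from limma; open circles mark an adjusted p under 0.05. Ap2b1 and Ap2m1 pass in the knockout, at -0.37 and -0.28, and no gene passes in wild type.

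Within a group, most of the genes lay on the same side of their mean on some arrays. On E18.5 knockout array 2 all 10 genes lay above their group mean, and 6 had their highest value of the group there; on array 1 all 10 lay below it, and on array 4 it was 9 of 10. These are the 3 E18.5 knockout arrays with raised intestinal or muscle markers. Array 1 also had the highest neuron and Schwann cell mean of its group (8.92), and array 4 the highest ductal mean (9.15). The part of those tissues was not tested. On arrays below the marker cut, 8 of 10 genes lay above the mean on E18.5 knockout array 5 and on E18.5 wild-type array 2. On P0 knockout array 3, 8 of 10 lay below it. At P0, wild-type array 3 had 9 of 10 below the mean and the lowest value for 6, while wild-type array 1 had 9 of 10 above it. P0 knockout array 4 held the highest value for 5 genes. The arrays share normalisation, so these counts are a description.

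Across the 20 arrays, each gene's profile was centred on its own mean and compared with that of Cltc by the mean absolute difference. Over 12816 genes, the profiles nearest to Cltc were those of Maged2 (0.0957), Copb2, a subunit of the COPI coat (0.107), and Erh (0.115), beside a median of 0.272 over all genes. Ap2m1 was 29th (0.141), Ap2s1 67th (0.150) and Cltb 71st (0.151). Ap2a1 was 952nd (0.198), Ap2b1 1552nd (0.210), Ap1m1 1875th (0.215) and Ap2a2 2888th (0.229). Cltc deviated from its own mean by 0.223 on average, which is where a flat profile would lie. Dnm2, at 0.292, and Clta, at 0.312, lay farther from Cltc than the median gene. These distances share arrays and normalisation and carry no test.

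The wider uptake pathway was described through 105 further genes in 7 lists, of which 99 had a probe set and 92 were tested. None of the 92 passed between genotypes at E18.5, at P0 or on average, and none differed in the knockout effect between the ages. An unadjusted p under 0.05 was found for 1 at E18.5, 2 at P0, 6 on average and 3 for the difference between the ages, beside 980, 1576, 1180 and 1256 of all 17993 genes in the same comparisons. The lowest adjusted p at E18.5 was that of Egfr, the epidermal growth factor receptor, at -0.38 ± 0.15 (limma adjusted p = 0.839). At P0 it was that of Snx18, a sorting nexin of membrane remodelling, at 0.24 ± 0.07 (adjusted p = 0.406). Averaged over ages, it was that of Arrb1, a beta-arrestin, at -0.14 ± 0.05 (adjusted p = 0.657).

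With age, 25 of the 92 passed in the knockout, 20 higher and 5 lower, which is 27.2% beside 23.0% of all genes (11.3% higher and 11.7% lower). In wild type 13 passed, 12 higher and 1 lower, or 14.1% beside 8.86% of all genes (4.76% higher and 4.1% lower). Of the adaptors and initiators that start a pit, 4 of 23 rose and 1 fell in the knockout, and 4 rose in wild type. Reps1, an EH-domain protein, rose by 0.78 ± 0.14 in the knockout and 0.77 ± 0.16 in wild type. Dab2, a cargo adaptor, rose by 0.72 ± 0.16 in the knockout and 0.87 ± 0.18 in wild type. Fcho2, which bends the membrane at an early pit, rose by 0.62 ± 0.12 in the knockout and 0.54 ± 0.14 in wild type.

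Early endosome, sorting and recycling genes held 7 of 19 that rose in the knockout and 6 of 19 in wild type, and 0 fell in either. Of all genes, 11.3% rose and 11.7% fell in the knockout, and 4.76% rose and 4.1% fell in wild type. The list's median differences were 0.21 in the knockout and 0.16 in wild type, beside medians of -0.00 and 0.01 over all genes. Snx2, a retromer-associated sorting nexin, rose by 0.58 ± 0.15 in the knockout and 0.77 ± 0.16 in wild type. Rab11b, a small GTPase of recycling endosomes, rose by 0.53 ± 0.11 in the knockout and 0.61 ± 0.12 in wild type. Eea1, a tether of early endosomes, rose by 0.45 ± 0.08 in the knockout and 0.38 ± 0.09 in wild type.

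The counts of the remaining lists also stand beside 11.3% higher and 11.7% lower of all genes in the knockout, and 4.76% higher and 4.1% lower in wild type. Among 7 cargo receptors, with Elapor1 left out, 3 rose and 1 fell in the knockout. Egfr rose by 0.71 ± 0.13, and Igf2r, which clears insulin-like growth factor 2, fell by 0.71 ± 0.12. Egfr did not pass in wild type, and its knockout effect at P0 minus that at E18.5 was 0.47 ± 0.20 (limma adjusted p = 0.683). In wild type Igf2r fell by 0.59 ± 0.13 and M6pr, a mannose 6-phosphate receptor, rose by 0.41 ± 0.11. Of 18 genes for bending, fission and uncoating, 5 rose in the knockout and 1 in wild type. The largest rise in the knockout was that of Snx33, at 0.55 ± 0.17. The wild-type one was Gak, which strips clathrin from vesicles, at 0.31 ± 0.08. Of 10 other AP-1 and GGA adaptors, 1 rose and 2 fell in the knockout and 0 passed in wild type. In the knockout Ap1m2 differed by -0.51 ± 0.17 and Ap1s2 by 0.31 ± 0.09, and Gga2, a trans-Golgi adaptor, fell by 0.30 ± 0.08. Of 10 AP-3 and AP-4 adaptors, Ap3d1 fell by 0.35 ± 0.11 in the knockout, and of 5 caveolar genes 0 passed in either genotype.

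**Figure D4:**
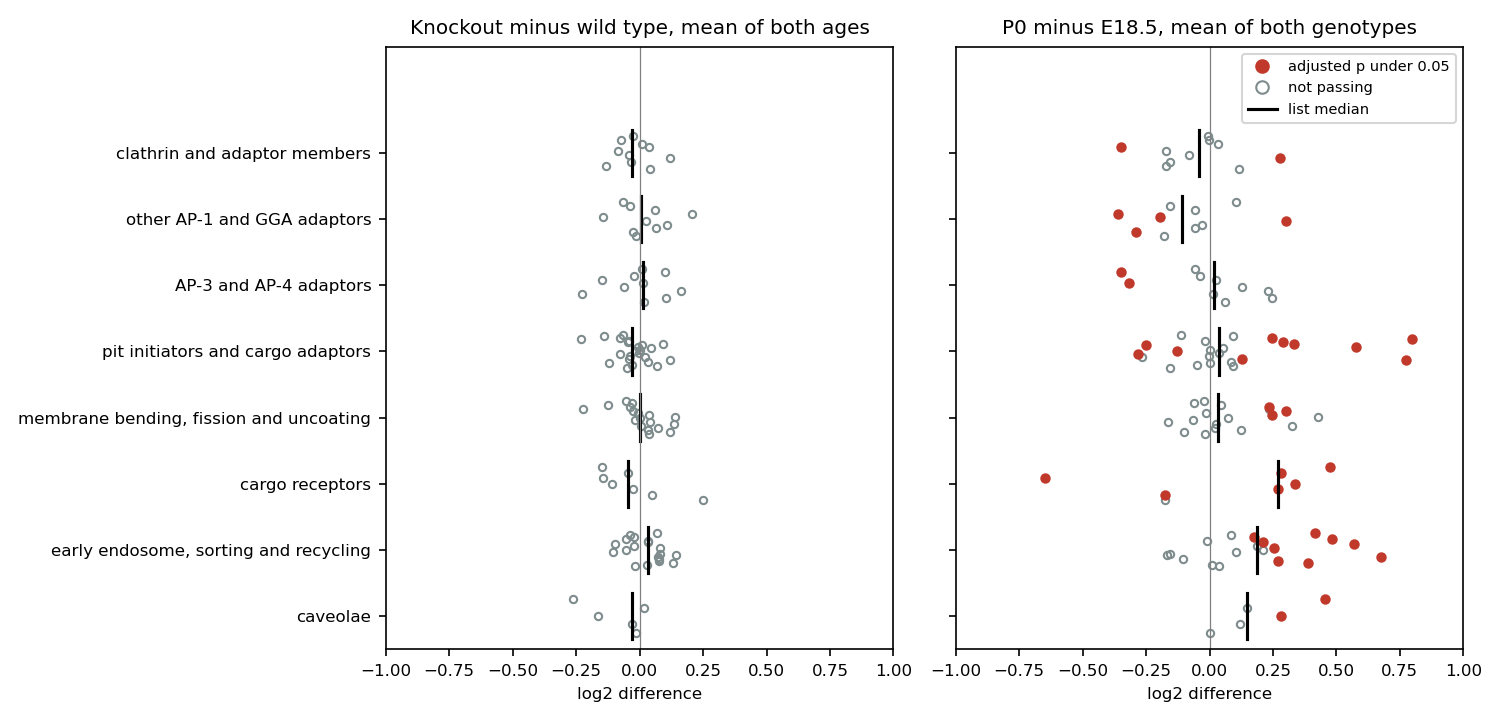
Log2 differences of the 10 clathrin and adaptor genes and of 7 further lists (Elapor1 left out), for knockout minus wild type averaged over ages and for P0 minus E18.5 averaged over genotypes. Filled points have an adjusted p under 0.05 and bars mark list medians. No point is filled for genotype. For age, 9 of 19 points of the early endosome list are filled, all above 0, against 15.8% of all genes higher and 14.7% lower.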

How the data were processed

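RNA of 20 mouse pancreas samples was measured on Affymetrix arrays. The deposited values are log2 signals, which the authors made with RMA in Affymetrix Expression Console 1.4.1.46, per the submitters' processing notes. The array's genome build was not given in the sources used here. Of 65956 probe sets, 30604 carried 1 gene symbol, 2146 several and 33206 none. A gene was tested if its signal exceeded the median of the array on 4 or more arrays.

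Computed here was a limma 3.58.1 fit (R 4.3.3) of 4 group means to all 20 arrays, with 16 residual and 17.9 total degrees of freedom, two-sided contrasts and Benjamini-Hochberg adjustment over 17993 genes. The threshold for a call was an adjusted p of 0.05, and differences carry the SE. The fit was tested on simulated data. Named genes were the 10 genes, Elapor1 and the 3 profiles nearest to Cltc. From the pathway lists, named genes were among the called genes of largest change, or otherwise among those of smallest p. The members, lists and settings were chosen with earlier results of these data known. Alternatives covered normalisation, filters, weights, covariates, a replicate block and leaving out arrays. Insr, Picalm, Arrb2 and Fnbp1l were not analysed here.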

Additional observations from a re-analysis of the deposited data

How the results depend on the processing

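Over 32 settings, 20 of which leave out 1 array, 0 of the 10 genes passed between genotypes. For P0 minus E18.5 in the knockout, 2 genes passed; centring on array medians left 1, the replicate block 1, and leaving out the 5 marker-rich arrays 0, while leaving out 1 array gave 1 to 3. In wild type 0 passed; cyclic loess gave 1, and leaving out 1 array 0 to 1. Averaged over genotypes 2 passed; the replicate block left 1 and leaving out the marker-rich arrays 1. The call of Ap2b1 in the knockout was lost without the marker-rich arrays and kept when any 1 array was left out (adjusted p = 0.0093 to 0.0463). Ap2m1 in the knockout lost its call with centring (-0.25, adjusted p = 0.0762) and the block (-0.26, adjusted p = 0.0637). Cltc in the knockout gained a call with array weights (-0.35, adjusted p = 0.0489). Clta averaged over genotypes lost its call with repeated quantile normalisation (0.22, adjusted p = 0.053) and the block (0.26, adjusted p = 0.0574), while Ap2m1 gained one in 8 settings. The causes of these changes were not tested. The replicate numbers were not taken as pairs, because the labels do not state that they pair samples. Of 27 same-numbered pairs, within and across ages, 8 had deviations correlating above 0.1. Between knockout and wild type of the same age, the correlations were 0.09, 0.18, 0.124 and 0.229 at E18.5. At P0 they were 0.04, 0.041, 0.116, 0.245 and -0.031. These correlations do not decide whether the numbers mark pairs.

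Of 2210 single-gene values, 119 changed sign, none of them called, and the largest value involved in a change of sign, before or after it, was 0.14 in size. For knockout minus wild type at E18.5 the values that crossed 0 were Cltc -0.030, Cltb -0.0059 and Ap2m1 -0.036 with cyclic loess, Cltc -0.014 and Ap2m1 -0.024 with repeated quantile normalisation and Ap2m1 -0.0000 and Ap2s1 0.0035 without the 5 marker-rich arrays. For knockout minus wild type at P0 the values that crossed 0 were Ap2b1 -0.014 and Ap2s1 0.0063 with array weights, Ap2s1 0.019 with centring on array medians and Ap2b1 -0.028 with repeated quantile normalisation. For that comparison they were also Ap2s1 0.024 with the replicate block. For the averaged knockout effect the values that crossed 0 were Ap2a2 -0.021 with array weights, Ap2a2 -0.025 with cyclic loess and Ap2a2 -0.041 and Ap2b1 -0.012 with repeated quantile normalisation. For that comparison they were also Cltb 0.0070 and Ap1m1 0.0045 without the 5 marker-rich arrays. For the difference of that effect between ages the values that crossed 0 were Clta 0.0019 with array weights, Clta 0.0077 with centring on array medians and Clta 0.024 with cyclic loess. For that comparison they were also Clta 0.016 with the running sample number as a covariate and Ap2a1 0.022 and Ap2s1 -0.11 without the 5 marker-rich arrays. For P0 minus E18.5 in the knockout the values that crossed 0 were Ap2a1 0.0033 with centring on array medians and Ap2a1 0.0081, Ap2a2 -0.0064 and Ap1m1 -0.033 without the 5 marker-rich arrays. For P0 minus E18.5 in wild type the values that crossed 0 were Cltc 0.017 with centring on array medians, Dnm2 -0.022 with cyclic loess and Dnm2 -0.017 with repeated quantile normalisation. For that comparison they were also Cltc 0.012 with the replicate block, Cltc 0.0067 with the running sample number as a covariate and Ap2a1 -0.013 without the 5 marker-rich arrays. For P0 minus E18.5 averaged over genotypes the values that crossed 0 were Ap2a1 0.0018 and Ap1m1 0.0022 with array weights, Ap2a1 0.022 and Ap1m1 0.017 with centring on array medians and Ap2a2 -0.0017 with repeated quantile normalisation. For that comparison they were also Ap2a2 -0.062 without the 5 marker-rich arrays. The ranges with 1 array left out were these, for genes that crossed 0. Knockout minus wild type at E18.5 gave Cltc -0.020 to 0.10, Cltb -0.040 to 0.12, Ap2m1 -0.048 to 0.085, Ap2s1 -0.14 to 0.0004 and Dnm2 -0.097 to 0.024. Knockout minus wild type at P0 gave Ap2b1 -0.025 to 0.081 and Ap2s1 -0.11 to 0.045. The averaged knockout effect gave Cltb -0.078 to 0.0079, Ap2a2 -0.036 to 0.041 and Ap1m1 -0.045 to 0.0032. The difference of that effect between ages gave Clta -0.11 to 0.057, Ap2b1 -0.13 to 0.027 and Ap2s1 -0.028 to 0.14. P0 minus E18.5 in the knockout gave Ap2a1 -0.045 to 0.0012 and Ap2s1 -0.15 to 0.020. P0 minus E18.5 in wild type gave Cltc -0.065 to 0.093, Cltb -0.17 to 0.0040, Ap2a1 -0.013 to 0.042, Ap2a2 -0.13 to 0.017 and Dnm2 -0.029 to 0.10. P0 minus E18.5 averaged over genotypes gave Ap2a1 -0.018 to 0.011 and Ap1m1 -0.030 to 0.023.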

Other observations

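None of the 40 groups of arrays, 10 genes in each of 4 groups, held an array whose gap to its nearest neighbour passed Dixon's limit, a rule by which chance marks about 1 in 20 groups.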
